A study of Mus musculus with 9 samples.

Results

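Collagen genes were taken as every probe whose array symbol is *Col* followed by a number, the letter a and a number, and this rule found 56 of the 25697 probes and 36 of the 18120 symbols. The arrays compared the mouse otic vesicle (OV), the epithelial sac that gives rise to the inner ear, with other tissue of the same stage, to find transcripts that set the otic lineage apart. All 9 samples were pooled tissue of CD-1 embryos at E10.5 (mid-gestation), with no allele, transgene or treatment named. Each group had 3 arrays, from pools that the study dissected out of 3 litters. The OV group held microdissected vesicles, the periotic group held the tissue around them, which includes mesenchyme and hindbrain, and the embryo-minus-otic group held whole embryos without their otic regions. Both non-otic groups were therefore mixtures of cell types. The OV arrays also carried signal of mesenchyme and erythroid marker genes, given below, so their collagen signal cannot be assigned to the epithelium alone. In such bulk samples fewer cells of a type and less RNA per cell cannot be told apart.

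Collagens are triple helices of chains made by separate genes, and they are grouped here by what they build. Fibrillar collagens (types I, II, III, V, XI, XXIV and XXVII) form the banded fibrils of connective tissue and cartilage. Basement membrane collagens are the type IV chains, which form the sheet under every epithelium, and types XV and XVIII, which sit at its edge. FACIT collagens such as type IX do not form fibrils of their own and lie on the surface of others. The remaining types were counted as other, among them type VI, which forms beaded filaments, type VII, which anchors basement membranes to the tissue beneath, and membrane-spanning types such as XXIII. In the inner ear, types II and IX are known as components of the tectorial membrane and the otic capsule.

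A value here is the log2 intensity of a probe after quantile normalization, and a detection p under 0.01 was needed for a probe to count as above background. Differences were tested with limma in 1 model of all 25697 probes, and *q* is the p adjusted over all of them by the method of Benjamini and Hochberg. A probe was called at *q* under 0.05, and the p-values measure only the spread between pools. Of all probes, 43.9% to 47.3% were above background on each array. Of the 56 collagen probes, 28 were above background on at least 1 array, 14 of them on all 9, and each array showed between 19 and 26. The dissection labels were checked with marker genes. Of 15 probes for otic vesicle genes, 12 were higher in OV than in each non-otic group, and their summed linear intensity was 7520 to 8230 on the OV arrays against 1239 to 1363 in periotic tissue and 1413 to 1479 in embryo-minus-otic. Of the 15, 3 were above background on no OV array, 11 on no periotic array and 9 on no embryo-minus-otic array. OV replicate 1 stood apart on heart genes, with *Actc1* at 7.37 against 5.98 and 5.78 on the other OV arrays, and without it 2 of the 36 collagen calls were lost.

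Collagen probes were called more often than the array as a whole when OV was compared with either non-otic group. Against periotic tissue, 11 were higher in OV and 4 lower, which is 26.8% of the collagen probes where 10.2% of all probes were called (5.07% higher and 5.15% lower). Against embryo-minus-otic, 11 were higher and 7 lower, or 32.1% where 11.4% of all probes were called (5.89% higher and 5.51% lower). These comparisons share the OV arrays, so their calls are not independent of each other. In both, 10 probes of 8 genes were higher in OV, namely *Col2a1*, *Col9a2*, *Col6a1*, *Col7a1*, *Col4a1*, *Col4a2*, *Col18a1* and *Col27a1*. The 3 probes that were lower in OV in both were those of *Col1a1*, *Col5a1* and *Col23a1*. No probe was called in opposite directions. Without regard to the test, all OV arrays lay above all periotic arrays for 15 probes (26.8%, against 12.3% of all probes) and below them for 7 (12.5%, against 12.8%). Against embryo-minus-otic they lay above for 13 (23.2%, against 13.1%) and below for 9 (16.1%, against 11.8%).

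**Figure D1:**
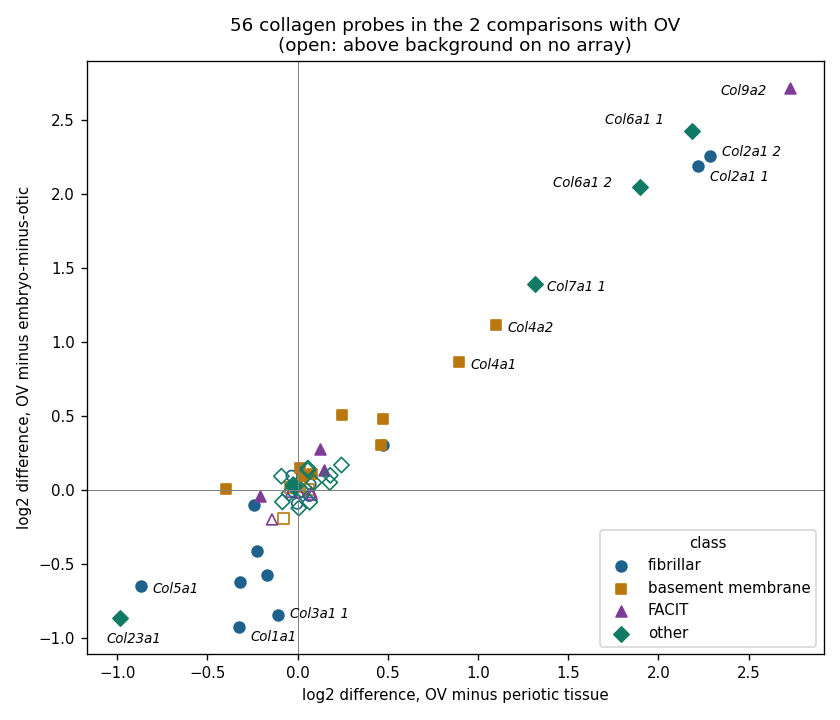
Each of the 56 collagen probes is placed by its log2 difference between OV and periotic tissue (horizontal axis) and between OV and embryo-minus-otic (vertical axis), with a marker for each class and open markers for probes above background on no array. The axes share the OV arrays. *Col9a2*, *Col2a1*, *Col6a1* and *Col7a1* lie farthest to the upper right, *Col23a1* and *Col5a1* to the lower left, and the open markers all lie near 0.

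Within the fibrillar, basement membrane and other classes, members moved in opposite directions. Fibrillar probes numbered 15, with 3 higher and 2 lower in OV than in periotic tissue and 3 higher and 6 lower than in embryo-minus-otic. Of 13 basement membrane probes, 4 were higher and 1 lower against periotic tissue, and 4 were higher and 0 lower against embryo-minus-otic, where 1 was lower at an unadjusted p under 0.05. Among 9 FACIT probes, 1 was higher in each comparison and 0 were lower, with 1 lower at an unadjusted p under 0.05 in each. Of the 19 other probes, 3 were higher and 1 was lower in each comparison. The median log2 difference between OV and periotic tissue was -0.03 for fibrillar, 0.06 for basement membrane, 0.08 for FACIT and 0.06 for other probes. Against embryo-minus-otic the medians were -0.09, 0.11, -0.01 and 0.05 in the same order. The median over all probes was -3.71e-05 in the first comparison and 0.00434 in the second. These medians include the 28 collagen probes that never rose above background.

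**Figure D2:**
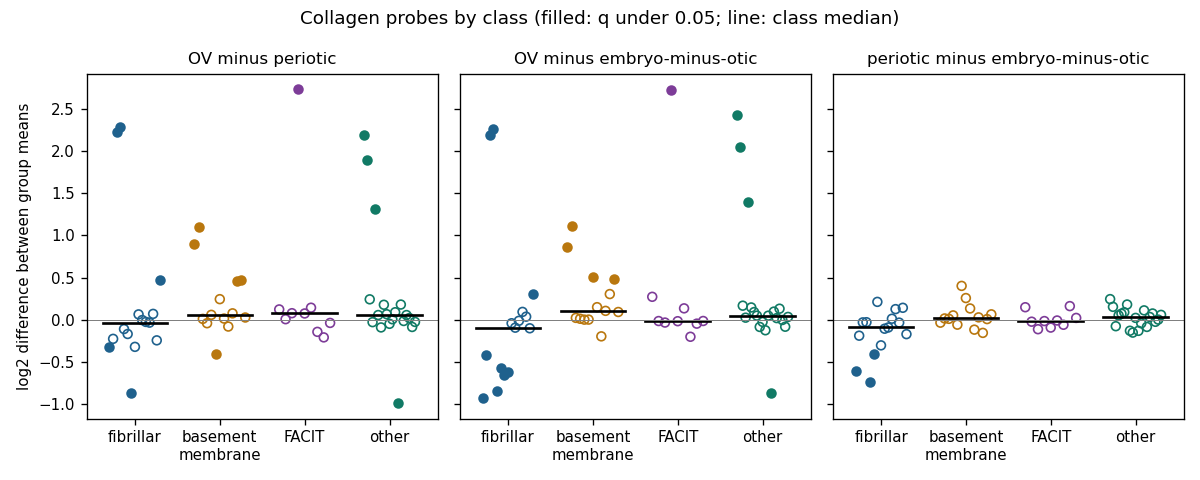
Points show the log2 difference between group means for every collagen probe, in columns by class and in a panel for each comparison; filled points were called (q under 0.05) and the black line is the class median. Called points spread to both sides of 0 within the fibrillar and other classes, and within the basement membrane class in the panel of OV minus periotic tissue. Each class median stays within 0.11 of 0.

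*Col2a1* encodes the chain of type II collagen, the main fibril of cartilage, and its probes had the largest OV differences of the fibrillar class. Its 2 probes (ILMN_2759142 and ILMN_2759144 in the deposited table) gave the same picture. On the first, the OV arrays read 11.18, 11.25 and 11.60, the periotic arrays 9.07, 9.04 and 9.27, and the embryo-minus-otic arrays 9.16, 9.09 and 9.21. On the second, the OV arrays read 10.68, 10.66 and 11.19, the periotic arrays 8.42, 8.51 and 8.74, and the embryo-minus-otic arrays 8.77, 8.37 and 8.60. Every OV array was above every non-otic array on both probes, and the non-otic groups overlapped. The first probe exceeded periotic tissue 4.66-fold in OV (log2 difference 2.22, SE 0.11, *q* = 1.13e-09) and embryo-minus-otic 4.56-fold (2.19, SE 0.11, *q* = 2.19e-09). For the second the folds were 4.88 and 4.79 (*q* = 1.34e-08 and 1.82e-08). The notochord is another known source of type II collagen at this stage. The genes listed for it were *T*, *Noto*, *Shh* and *Foxa2*, and all 6 of their probes were below background on every OV array. Their summed linear intensity was 330.4 to 358.2 there against 562.3 to 710 in periotic tissue and 676.6 to 721.9 in embryo-minus-otic. The part of notochord in the non-otic *Col2a1* levels was not tested.

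*Col27a1*, another fibrillar chain of cartilage, was also higher in OV but by much less. Its OV arrays read 6.47, 6.36 and 6.52, and no periotic array and 1 embryo-minus-otic array were above background. OV exceeded periotic tissue at least 1.2-fold (*q* = 0.00137), where the bound sets the OV mean against the lowest signal above background. Against embryo-minus-otic the log2 difference was 0.30 (*q* = 0.0316), and this call was lost when OV replicate 1 or 3 or embryo-minus-otic replicate 2 or 3 was left out (*q* = 0.0637 to 0.122). *Col11a1* and *Col11a2*, whose chains co-assemble with type II collagen in cartilage fibrils, were not above background on any array.

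The other fibrillar chains that were called went the other way. *Col5a1*, whose type V collagen starts the assembly of type I fibrils, read 9.08, 9.35 and 9.51 on the OV arrays, 10.14, 10.13 and 10.27 in periotic tissue, and 9.95, 10.06 and 9.89 in embryo-minus-otic. Each OV array was below each non-otic array. OV was 1.82-fold below periotic tissue (*q* = 3.24e-05) and 1.57-fold below embryo-minus-otic (*q* = 0.00052). The call against embryo-minus-otic was lost in 1 of 18 alternative analyses. Periotic tissue read above embryo-minus-otic by a log2 of 0.21 without a call (*q* = 0.359), whereas the mesenchyme markers given below were lower in periotic tissue.

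*Col1a1*, a chain of type I collagen, was not above background on any OV array, where it read 6.11, 6.13 and 6.08. It read 6.54, 6.29 and 6.47 in periotic tissue and 7.18, 6.97 and 6.96 in embryo-minus-otic, so the 3 groups did not overlap. Embryo-minus-otic was at least 1.79-fold above OV (*q* = 4.42e-06) and periotic tissue at least 1.18-fold above it (*q* = 0.039). The periotic call was lost without any 1 of the 3 OV arrays, without periotic replicate 1 or without periotic replicate 3 (*q* = 0.092 to 0.174), while the fitted log2 difference stayed between -0.33 and -0.27. After neqc background correction the differences were larger, by over 1.5 times in fold against embryo-minus-otic.

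*Col1a2*, *Col3a1* and *Col5a2* were lower in OV than in embryo-minus-otic and were not called against periotic tissue. *Col1a2*, the partner of *Col1a1* in type I collagen, differed by a log2 of -0.41 from embryo-minus-otic (*q* = 0.00539) and was above background on 1 OV array. *Col3a1*, the type III chain of soft connective tissue, had 2 probes with log2 differences of -0.85 (*q* = 0.00148) and -0.57 (*q* = 0.000843). *Col5a2*, a second type V chain, differed by -0.62 (*q* = 0.00674) and was above background on 1 OV array. Of 18 alternative analyses, 3 lost the call of *Col1a2* against embryo-minus-otic. The calls of *Col5a2* and of each *Col3a1* probe there were lost in 1. Against periotic tissue the differences of these 4 probes were between -0.32 and -0.11, and *Col1a2* alone became a call there after neqc background correction (-0.45, *q* = 0.0476). Mesenchyme markers moved with these genes. Of 13 mesenchyme probes, 10 were lower in OV than in embryo-minus-otic and 2 were lower than in periotic tissue. Their summed linear intensity was 1753 to 1978 in OV, 2015 to 2304 in periotic tissue and 4531 to 5403 in embryo-minus-otic, with 3 of 13, 4 of 13 and 2 of 13 above background on no array of the group. Erythroid markers were lower in OV as well, in 4 of 5 probes in each comparison, with sums of 4083 to 11070 in OV, 20970 to 22460 in periotic tissue and 26850 to 30590 in embryo-minus-otic, and 1 of the 5 below background throughout. Of 7 heart and muscle probes, 6 were lower in OV than in embryo-minus-otic, with sums of 389.4 to 814.4, 392.8 to 406.5 and 8644 to 9796 in the same order, and with 2, 6 and 1 probes above background on no array of the group. The part of mesenchyme, blood or muscle content in the collagen differences was not tested.

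**Figure D3:**
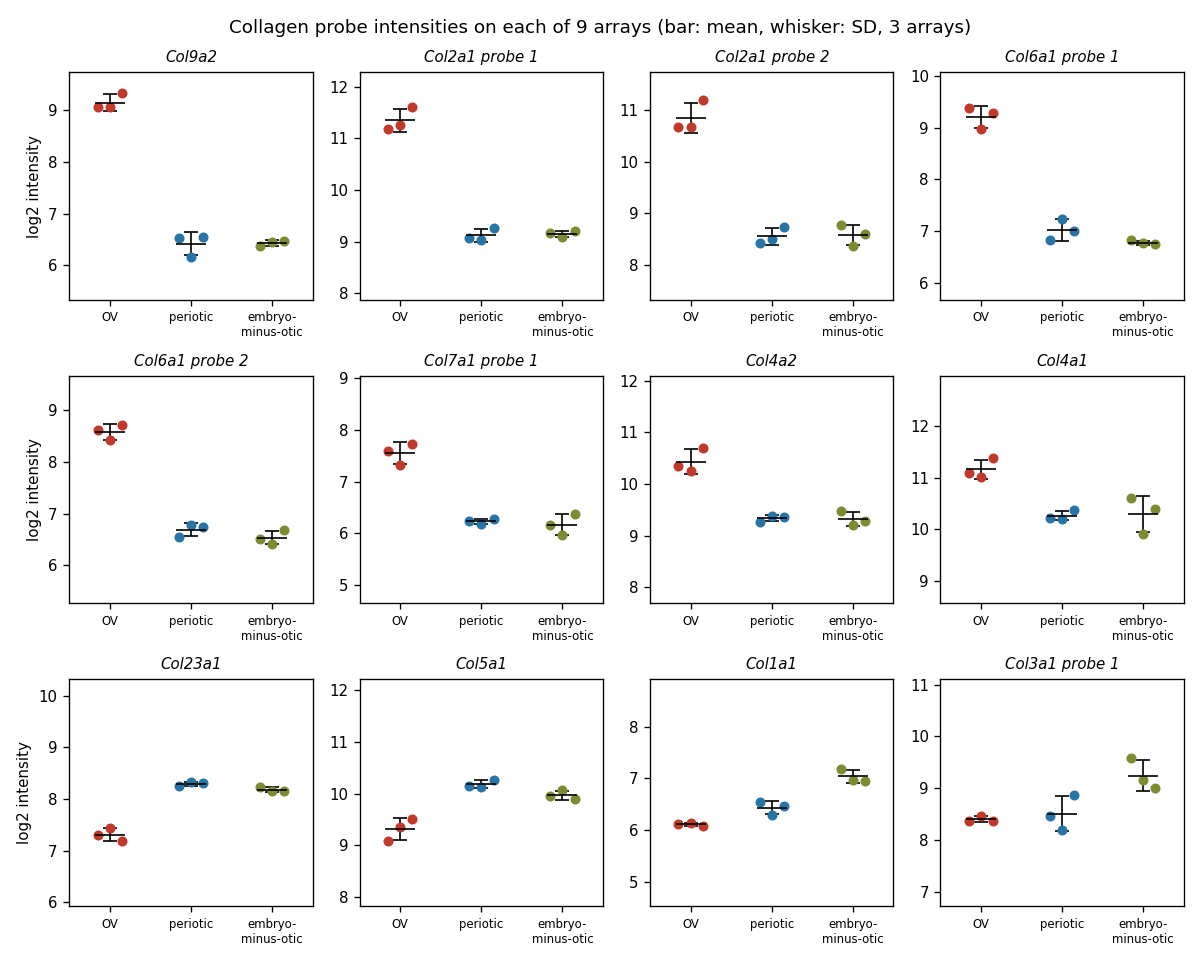
Log2 intensity of 12 collagen probes on each of the 9 arrays, with a point per array, a bar for the group mean and whiskers for the SD of 3 arrays; each panel spans the same number of log2 units around its own mean. The OV points lie above all non-otic points for the 8 probes of *Col9a2*, *Col2a1*, *Col6a1*, *Col7a1*, *Col4a2* and *Col4a1*, and below them for *Col23a1*, *Col5a1* and *Col1a1*; for *Col3a1* probe 1 they overlap the periotic points.

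*Col9a2* had the largest OV difference of the 56 collagen probes in each comparison. It lies on chromosome 4 in the deposited annotation, has 1 probe (ILMN_2945030), and encodes a chain of type IX collagen, the FACIT that coats type II fibrils. The OV arrays read 9.06, 9.06 and 9.33, the periotic arrays 6.54, 6.17 and 6.56, and the embryo-minus-otic arrays 6.37, 6.46 and 6.48. Every OV array was more than 2 log2 units above every non-otic array, and the non-otic groups overlapped. OV was 6.64-fold above periotic tissue (log2 difference 2.73, SE 0.11, *q* = 1.62e-10) and 6.57-fold above embryo-minus-otic (2.72, SE 0.11, *q* = 3.86e-10). Among the non-otic arrays it was below background only on periotic replicate 2. After neqc background correction, which subtracts a fitted background and so widens differences of dim probes, the log2 differences were 3.54 and 3.50.

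Type IX collagen needs chains from *Col9a1* and *Col9a3* as well, and the array gave little signal for either. *Col9a1* probe 1 was above background on 2 OV arrays, 1 periotic array and no embryo-minus-otic array. It read 6.33, 6.07 and 6.38 in OV, 6.20, 6.01 and 6.19 on the periotic arrays, and 5.89, 6.10 and 5.97 in embryo-minus-otic, and was called in no comparison (*q* = 0.626 and 0.115 for OV), except that it was called against embryo-minus-otic without OV replicate 2 (*q* = 0.0427). The other 2 *Col9a1* probes and the *Col9a3* probe stayed below background throughout. A probe below background gives only an upper limit, and signals of different probes cannot be set against each other, so the balance of the chains could not be read from these values. Among the other FACIT genes, *Col12a1* was above background on all OV arrays, 1 periotic array and no embryo-minus-otic array, with a log2 difference of 0.14 from periotic tissue, an OV level at least 1.05-fold above embryo-minus-otic, and no call. *Col16a1* was above background on all 9 arrays and differed by -0.21 from periotic tissue (*q* = 0.17) and -0.04 from embryo-minus-otic (*q* = 0.847).

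**Figure D4:**
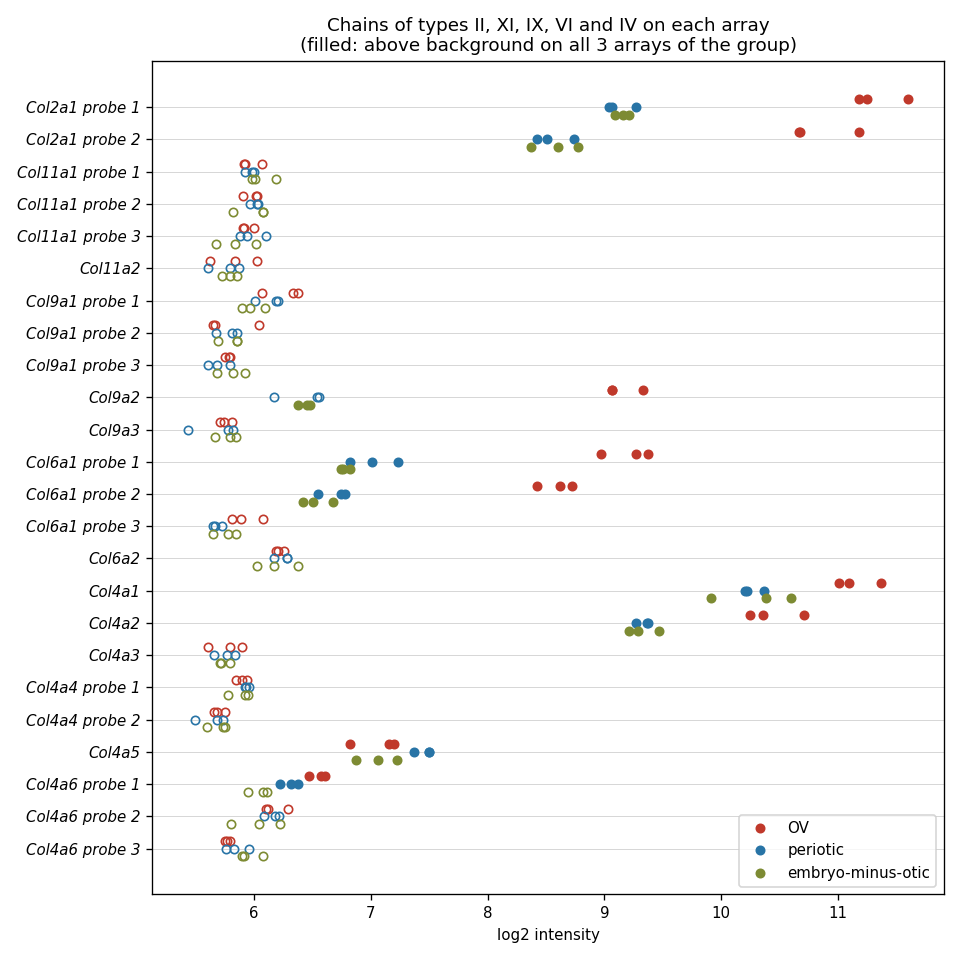
Log2 intensity on each array for all probes of the type II, XI, IX, VI and IV chains, with 3 points per group and probe, filled where all 3 arrays of the group were above background. *Col2a1*, *Col9a2*, *Col6a1* probes 1 and 2, *Col4a1* and *Col4a2* show OV points to the right of all others, whereas the points of *Col11a1*, *Col9a3*, *Col6a2* and *Col4a3* cluster together near the background.

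*Col4a1* and *Col4a2*, whose chains together make the common type IV collagen of basement membranes, rose together in OV. The genes lie head to head on chromosome 8 with overlapping promoters, and for that reason their start regions are shown. The windows are RefSeq sequences on GRCm38.p6, from 250 bases before to 50 bases after each start site, printed 5′ to 3′ on the strand of the gene, and the capitals mark the 78 bases that both windows hold. *Col4a2* is on the plus strand (chr8:11312555-11312854) and *Col4a1* on the minus strand (chr8:11312777-11313076).
Col4a2: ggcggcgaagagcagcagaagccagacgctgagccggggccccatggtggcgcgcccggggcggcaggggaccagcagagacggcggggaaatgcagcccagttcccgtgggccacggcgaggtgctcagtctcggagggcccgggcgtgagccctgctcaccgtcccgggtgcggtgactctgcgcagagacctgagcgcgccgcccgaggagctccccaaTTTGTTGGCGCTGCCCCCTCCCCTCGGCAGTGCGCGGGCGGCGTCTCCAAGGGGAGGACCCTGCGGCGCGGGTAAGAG
Col4a1: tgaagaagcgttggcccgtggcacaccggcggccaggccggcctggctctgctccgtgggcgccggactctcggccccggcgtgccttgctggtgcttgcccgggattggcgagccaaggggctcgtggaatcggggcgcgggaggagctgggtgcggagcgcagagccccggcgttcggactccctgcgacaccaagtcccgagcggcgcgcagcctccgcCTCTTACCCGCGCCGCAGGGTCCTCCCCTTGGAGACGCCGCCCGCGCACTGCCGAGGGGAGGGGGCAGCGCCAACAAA
The start sites are 21 bases apart, with the 5′ ends of the genes overlapping. Neither window holds TATAAA on either strand, which 13.6% of 32851 mouse promoter windows of this length do.

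*Col4a2* read 10.36, 10.24 and 10.71 on the OV arrays, 9.27, 9.38 and 9.36 in periotic tissue, and 9.47, 9.21 and 9.28 in embryo-minus-otic. OV exceeded periotic tissue 2.14-fold (log2 difference 1.10, SE 0.11, *q* = 5.44e-06) and embryo-minus-otic 2.17-fold (*q* = 4.81e-06). *Col4a1* read 11.09, 11.01 and 11.37 in OV, 10.22, 10.20 and 10.37 on the periotic arrays, and 10.60, 9.91 and 10.38 in embryo-minus-otic. Its differences were 1.86-fold (*q* = 0.000476) and 1.82-fold (*q* = 0.000684). For both genes all OV arrays were above all non-otic arrays. Endothelium is a known source of type IV collagen. Of 7 endothelial probes, 2 were lower in OV than in periotic tissue and 3 lower than in embryo-minus-otic, and their summed linear intensity was 829.1 to 996.1 in OV, 1107 to 1331 in periotic tissue and 1272 to 1499 in embryo-minus-otic. The part of endothelial content in the type IV differences was not tested.

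The other type IV chains did not follow this pair. *Col4a3* and *Col4a4*, a second head-to-head pair that serves kidney and lung basement membranes, were not above background on any array. *Col4a5* and *Col4a6* form another pair, on the X chromosome, with start sites 1343 bases apart in the same reference. *Col4a5* read 7.20, 6.82 and 7.15 in OV, 7.50, 7.50 and 7.37 on the periotic arrays, and 6.88, 7.06 and 7.23 in embryo-minus-otic. It was 1.32-fold lower in OV than in periotic tissue (*q* = 0.0356), and the log2 difference from embryo-minus-otic was 0.00 (*q* = 0.994). The periotic call was lost without OV replicate 2, where the log2 difference was -0.28, and without periotic replicate 1 or 2 (*q* = 0.119 to 0.192). *Col4a6* probe 1 passed the background threshold on every OV and periotic array and on no embryo-minus-otic array. It was at least 1.26-fold higher in OV than in embryo-minus-otic (*q* = 0.000897), and it was not called against periotic tissue (log2 difference 0.25, *q* = 0.105), except after neqc background correction (0.46, *q* = 0.0403). Its probe 2 was near background with no call, and its probe 3 stayed below background throughout.

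*Col18a1*, the basement membrane collagen from which endostatin is cut, had 3 probes. Probe 2 rose in OV by log2 differences of 0.47 against periotic tissue (*q* = 0.00681) and 0.48 against embryo-minus-otic (*q* = 0.00587). Probe 1 was higher against periotic tissue (0.46, *q* = 0.0252), a call lost without OV replicate 2 or 3 or periotic replicate 1 or 2 (*q* = 0.059 to 0.142), and was not called against embryo-minus-otic (0.31, *q* = 0.152), except without OV replicate 1 (0.46, *q* = 0.0148). Probe 3, above background on 2 arrays of each group, was not called. *Col15a1*, the relative of type XVIII, was above background on all 9 arrays, with log2 differences of 0.08 and 0.11 and no call.

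*Col6a1*, a chain of the beaded filaments of type VI collagen, rose in OV about as much as *Col2a1*. On probe 1 (ILMN_2768087) the OV arrays read 9.37, 8.97 and 9.27, the periotic arrays 6.82, 7.23 and 7.01, and the embryo-minus-otic arrays 6.82, 6.76 and 6.74. On probe 2 (ILMN_1259388) the OV arrays read 8.62, 8.42 and 8.72, the periotic arrays 6.54, 6.78 and 6.74, and the embryo-minus-otic arrays 6.51, 6.42 and 6.68. No OV array overlapped a non-otic array on either probe. The folds over periotic tissue were 4.55 (log2 2.19, SE 0.12, *q* = 2.78e-09) and 3.73 (log2 1.90, SE 0.11, *q* = 4.04e-09). Over embryo-minus-otic they were 5.40 (*q* = 1.48e-09) and 4.15 (*q* = 2.57e-09), the latter a log2 difference of 2.05 that became 2.70 after neqc background correction. Probe 3 stayed below background throughout.

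*Col6a2*, the next coding gene to *Col6a1* in the reference and its partner in type VI collagen, was not called. Its single probe read 6.26, 6.21 and 6.19 in OV, 6.17, 6.28 and 6.28 on the periotic arrays, and 6.37, 6.03 and 6.17 in embryo-minus-otic, and was above background on 2, 2 and 1 arrays. Its log2 differences were -0.03 (SE 0.096, *q* = 0.945) and 0.03 (SE 0.096, *q* = 0.931). *Col6a3* was not analysed here.

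*Col7a1*, the anchoring fibril collagen, lies on chromosome 9 in the deposited annotation and had 2 probes. Probe 1 (ILMN_2901944) read 7.60, 7.33 and 7.73 in OV, 6.24, 6.18 and 6.28 on the periotic arrays, and 6.15, 5.96 and 6.37 in embryo-minus-otic. All OV arrays were above all others. OV was 2.49-fold above periotic tissue (log2 1.32, SE 0.12, *q* = 8.7e-07), with 2 of 3 periotic arrays above background, and 2.62-fold above embryo-minus-otic (log2 1.39, SE 0.12, *q* = 5.45e-07), with 1 of 3. After neqc background correction the log2 differences were 2.05 and 2.20. Probe 2 stayed below background throughout. These genes rose beside epithelial markers. Of 6 listed epithelial symbols, 3 were found, namely *Cdh1*, *Cldn6* and *Rab25*. All 3 probes were higher in OV in both comparisons. Their summed linear intensity was 6154 to 7049 in OV, 433.5 to 540.5 in periotic tissue and 698.4 to 1105 in embryo-minus-otic. *Cldn6* was the brightest, with an OV mean of 12.5 against 9.08 for *Cdh1* and 7.68 for *Rab25*. The study ranks *Cldn6* and *Rab25* high using these same arrays, so they are no independent measure of epithelial content. The part of epithelial content in the collagen differences was not tested.

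*Col23a1*, a membrane-spanning collagen, had the largest drop in OV against periotic tissue of the 56 probes. It read 7.29, 7.44 and 7.18 in OV, 8.24, 8.33 and 8.30 on the periotic arrays, and 8.23, 8.15 and 8.15 in embryo-minus-otic. OV was 1.98-fold lower than periotic tissue (*q* = 1.02e-06) and 1.83-fold lower than embryo-minus-otic (*q* = 4.3e-06). Unlike *Col1a1*, it had close levels in the non-otic groups, which differed by a log2 of 0.11 (*q* = 0.633). Neural tube markers were also lower in OV, in 4 of 7 probes in each comparison, with a summed linear intensity of 437.2 to 472.1 in OV, 3545 to 4753 in periotic tissue and 1337 to 1714 in embryo-minus-otic. Of these 7 probes, 4 were above background on no OV array and 3 on no array of either non-otic group. Their part in the *Col23a1* difference was not tested.

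Start regions of the genes that rose were searched for short motifs, of which those of *Col9a2* and *Col6a1* are shown because they had the largest folds among genes with a window. RefSeq windows of 300 bases were found for 29 of the 36 symbols, 32 windows in all, and *Col2a1* had none. Capitals mark every match on either strand of GGGCGG, the GC box, and of ACAAAG, a core that SOX proteins bind, without overlap between these motifs.
Col9a2: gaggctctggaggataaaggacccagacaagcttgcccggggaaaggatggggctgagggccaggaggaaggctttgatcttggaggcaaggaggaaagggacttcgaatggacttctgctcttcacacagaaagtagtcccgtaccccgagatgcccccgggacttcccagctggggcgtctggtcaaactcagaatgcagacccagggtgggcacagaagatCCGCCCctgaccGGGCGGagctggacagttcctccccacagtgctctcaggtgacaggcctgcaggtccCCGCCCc
Col6a1: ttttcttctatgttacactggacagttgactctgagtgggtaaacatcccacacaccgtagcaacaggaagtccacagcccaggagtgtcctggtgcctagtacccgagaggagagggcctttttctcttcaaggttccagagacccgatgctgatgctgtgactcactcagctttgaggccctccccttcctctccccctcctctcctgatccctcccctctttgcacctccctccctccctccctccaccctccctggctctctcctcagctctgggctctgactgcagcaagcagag
The *Col9a2* window (chr4:121039316-121039615, plus strand) held 3 GC boxes and no ACAAAG, and the *Col6a1* window (chr10:76725995-76726294, minus strand) held neither. Over the 32 collagen windows, GGGCGG was present in 59.4%, where 35.7% of all 32851 windows had it, and in 6 of the 8 windows of genes higher in OV in both comparisons. These 8 windows are not independent, since *Col18a1* has more than 1 and the GC box of *Col4a1* lies in the bases shared with *Col4a2*. ACAAAG was present in 12.5% of collagen windows and 18.7% of all windows, and in 0 of those 8. CCAAT, a further promoter motif, was in 37.5% of collagen windows and 37.4% of all, and TATAAA in 15.6% and 13.6%. A match is a string of letters and not a bound site.

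The non-otic groups differed from each other in few collagens. Comparing periotic tissue with embryo-minus-otic, limma called 3 collagen probes lower and 0 higher, which is 5.36% where 5.81% of all probes were called (2.86% higher and 2.95% lower). At an unadjusted p under 0.05, 2 were higher and 4 lower. All periotic arrays lay above all embryo-minus-otic arrays for 6 collagen probes (10.7%, against 10.6% of all probes) and below them for 8 (14.3%, against 9.19%). The 3 probes were *Col1a1* (log2 difference -0.60, *q* = 0.000709) and both *Col3a1* probes (-0.74, *q* = 0.00825, and -0.41, *q* = 0.0217), all fibrillar. The first *Col3a1* probe read 8.46, 8.20 and 8.86 in periotic tissue and 9.58, 9.15 and 9.0 in embryo-minus-otic. Its call was lost without periotic replicate 2 (*q* = 0.0517), and that of the second without periotic replicate 3 or embryo-minus-otic replicate 1 or 2 (*q* = 0.0691 to 0.1). *Col4a5* was higher in periotic tissue by 0.40 without a call (*q* = 0.0533), and it was called without OV replicate 2 (*q* = 0.0337), which enters through the shared fit, or without embryo-minus-otic replicate 3 (*q* = 0.0315). It was also called when only these groups were fitted (*q* = 0.0471) or dim probes were filtered out (*q* = 0.0496), and *Col4a6* probe 1 was called after neqc background correction (*q* = 0.0322). Mesenchyme markers moved in the direction of *Col1a1* and *Col3a1*, with 10 of 13 probes lower in periotic tissue, and their part was not tested. None of the 7 probes with OV differences of at least 1 log2 unit was called between the non-otic groups, where their log2 differences ran from -0.03 to 0.25.

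The remaining 36 collagen probes were called in no comparison, and their largest log2 difference was 0.27 in either direction. Of these, 8 were above background somewhere, namely *Col9a1* probe 1, *Col12a1*, *Col16a1*, *Col4a6* probe 2, *Col15a1*, *Col18a1* probe 3, *Col6a2* and *Col24a1*, the last on 1 periotic array alone. The 28 probes never above background read between 5.37 and 6.18. They left 14 genes with no usable probe, which were *Col4a3*, *Col4a4*, *Col5a3*, *Col8a2*, *Col9a3*, *Col10a1*, *Col11a1*, *Col11a2*, *Col13a1*, *Col14a1*, *Col17a1*, *Col19a1*, *Col25a1* and *Col28a1*. For these the arrays set only an upper limit, and a difference was not detectable.

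Genes that make, process or accompany collagen were read from lists. Of the enzymes and chaperones of collagen biosynthesis, 28 of 31 symbols were found, with 40 probes. Against periotic tissue 6 probes were higher in OV and 1 lower, where 5.07% and 5.15% of all probes were. Against embryo-minus-otic 7 were higher and 7 lower, where 5.89% and 5.51% of all probes were, with 4 lower without OV replicate 1 and 3 without OV replicate 2 or embryo-minus-otic replicate 2. The list's median log2 differences were 0.04 and -0.04, with 10 of the 40 probes above background on no array. *Plod2*, the lysyl hydroxylase that prepares collagen ends for crosslinking, rose in OV by 0.87 against periotic tissue (*q* = 0.000186) and 1.17 against embryo-minus-otic (*q* = 9.7e-06). *Pcolce2*, an enhancer of procollagen C-propeptide removal, rose on both its probes, the first by 1.61 (*q* = 2.03e-08) and 1.01 (*q* = 4.2e-06). Its relative *Pcolce* fell, by 1.01 on the log2 scale against embryo-minus-otic (*q* = 2.27e-06), with a difference of -0.32 against periotic tissue (*q* = 0.051). *Bmp1*, the C-proteinase that *Pcolce* and *Pcolce2* enhance, was chosen after its values were seen, and 3 of its 4 probes rose in both comparisons by 0.35 to 0.61.

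Matrix partners were found for 21 of 22 symbols, with 30 probes, of which 3 were higher and 7 lower in OV than in periotic tissue and 3 higher and 8 lower than in embryo-minus-otic, set against the same shares of all probes. Their median log2 differences were -0.02 in both comparisons, and these medians include 15 probes that never rose above background. Of 7 probes for basement membrane partners, 2 were higher and 3 lower in OV in each comparison, with median log2 differences of -0.34 and -0.43. *Hspg2*, which encodes the basement membrane proteoglycan perlecan, rose by 1.02 (*q* = 3.68e-05) and 0.66 (*q* = 0.00234). *Sparc*, a collagen-binding matrix protein among the same partners, fell on both probes by 1.04 and 1.06 on the log2 scale against periotic tissue, with *q* up to 6.85e-05. Of the proteoglycans that coat collagen fibrils, *Lum* fell by 0.88 on the log2 scale against periotic tissue (*q* = 0.000404) and by 1.41 against embryo-minus-otic (*q* = 3.33e-06). *Dcn* probe 1 fell by 1.85 against embryo-minus-otic (*q* = 1.41e-06) and differed by -0.19 from periotic tissue (*q* = 0.665). Of 10 probes for cartilage matrix genes, 1 was higher and 1 lower in OV in each comparison, and 7 were above background on no array. *Matn1*, a cartilage matrilin chosen after its values were seen, was the higher one and was above background on the OV arrays alone. It was at least 1.45-fold above periotic tissue (*q* = 0.000174) and at least 1.42-fold above embryo-minus-otic (*q* = 0.000254). *Hapln1*, likewise chosen after its values were seen, was the lower one, with log2 differences of -0.58 (*q* = 0.0211) and -0.70 (*q* = 0.00577).

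Regulators of collagen transcription were found for all 7 listed symbols, with 13 probes, of which 6 were higher and 1 lower in OV in each comparison, again beside 5.07% and 5.15% of all probes against periotic tissue and 5.89% and 5.51% against embryo-minus-otic. Their median log2 differences were 0.28 and 0.09. Of the 13 probes, 5 were above background on no array, namely all those of *Sox6* and *Runx2*. *Sox9*, which activates *Col2a1* and the type IX genes in cartilage, read 4.08-fold above periotic tissue (log2 2.03, *q* = 3.32e-07) and 4.22-fold above embryo-minus-otic (log2 2.08, *q* = 2.77e-07). *Sox5*, its partner at cartilage enhancers, had 4 probes, of which 3 rose in both comparisons, the first by 1.70 (*q* = 1.47e-06) and 1.04 (*q* = 0.000255). *Scx*, a regulator of type I collagen in tendon, was at least 1.76-fold above periotic tissue (*q* = 8.35e-07) and rose by 0.86 against embryo-minus-otic (*q* = 1.12e-05), where 1 array was above background. *Trps1*, a repressor of the GATA type, fell by 0.48 on the log2 scale against periotic tissue (*q* = 0.0318) and by 1.05 against embryo-minus-otic (*q* = 5.49e-05). It was the only lower call of the list, and leaving out OV replicate 3 or periotic replicate 1 or 3 brought that count to 0 against periotic tissue.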

How the data were processed

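RNA from 9 pools of tissue was measured on 1-colour Illumina MouseRef-8 v2.0 arrays. The authors deposited 1 average signal intensity and 1 detection p-value per probe and array, not normalized between arrays. Whether background was subtracted is not given in the sources used here. Groups came from the tissue named in the labels. The slide of each array was not analysed here.

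Intensities were log2 transformed, quantile normalized over the 9 arrays and tested in limma 3.58.1 (R 4.3.3), with 1 linear model of the 3 groups and an empirical Bayes prior. The 3 comparisons were each adjusted over all 25697 probes. Probes of a gene were not averaged. They are numbered by their mean intensity over the 9 arrays, with the brightest as probe 1, so a higher number marks a dimmer probe by construction. A probe above background on no array of a group was given as a bound, set against the lowest signal above background. On simulated data, 100 of 25697 probes were changed by each size, all drawn from probes above the median intensity, with independent normal noise. In each OV comparison 93% of log2 changes of 1 and 100% of changes of 2 were recovered. There were 5 false calls against periotic tissue and 15 against embryo-minus-otic. These rates do not cover dimmer probes.

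Collagen probes with a called log2 difference of at least 1 are given on every array, other called probes by their differences, and partner genes with values where called with a difference of at least 1. Members and lists were chosen with earlier results of these data known. All 36 symbols were found in RefSeq's GRCm38.p6 gene table. Its collagens *Col20a1*, *Col22a1*, *Col26a1*, *Col6a4*, *Col6a5*, *Col6a6* and *Col8a1* were not analysed here. Alternatives were neqc background correction, median or no normalization, a filter on dim probes, fits of only the groups compared, a replicate block, an intensity trend, array weights, a test against a 1.2-fold change, other class definitions, a detection p under 0.05 and leaving out each array. The number of arrays limits the precision.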

Additional observations from a re-analysis of the deposited data

How the results depend on the processing

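Of the 36 collagen calls (a probe in a comparison), none changed direction under 18 alternatives each, 20 kept their call in all of them, and 57 of 648 recomputed values were no longer called. The calls of *Col2a1*, *Col9a2*, *Col6a1*, *Col7a1*, *Col4a1*, *Col4a2* and *Col23a1* held throughout. Most losses came with the test against a 1.2-fold change (14 calls), no normalization (10) and median normalization (9). The counts of probes higher in OV stayed within 1.5 times. Probes lower in OV than in periotic tissue went from 4 to 2 with median normalization, no normalization and the 1.2-fold test, and ran from 2 to 4 leaving out 1 array. Those lower than in embryo-minus-otic went from 7 to 4 with median normalization and with the 1.2-fold test. The share of calls that were higher in OV than in embryo-minus-otic was 61.1%, and 73.3% with median normalization. Probes lower in periotic tissue than in embryo-minus-otic went from 3 to 1 with median normalization and to 0 with the 1.2-fold test. Probes higher there went from 0 to 1 with neqc (*Col4a6* probe 1), with the filter on dim probes, with only the groups compared and with the replicate block (*Col4a5* each time), and ran from 0 to 1 leaving out 1 array. The replicate number as a block lost 0 of the 36 calls. The labels do not say what a number marks, and arrays of the same number had correlated deviations of 0.00798 to 0.182 (mean 0.0963, 5 of 9 over 0.1, against a mean of -0.0482 for different numbers), so the numbers were not taken as pairs, and not every array correlated best with its own number. The filter kept 23 collagen probes and moved several class medians. Against periotic tissue it gave -0.17 for fibrillar, 0.46 for basement membrane and 1.61 for other probes. Against embryo-minus-otic it gave -0.57 for fibrillar, 0.48 for basement membrane, 0.14 for FACIT and 1.72 for other probes, and between the non-otic groups -0.19 for fibrillar and 0.13 for other probes. With no normalization, the medians against embryo-minus-otic were -0.205 (fibrillar), -0.00701 (basement membrane), -0.127 (FACIT) and -0.064 (other), and between the non-otic groups -0.21 (fibrillar), -0.13 (FACIT) and -0.10 (other), while the median over all probes also fell, to -0.0904 and -0.0846. With neqc the fibrillar medians were -0.18 against embryo-minus-otic and -0.18 between the non-otic groups, basement membrane was 0.19 against embryo-minus-otic and other was 0.0339 against periotic tissue. Median normalization gave 0.11 for basement membrane between the non-otic groups, and array weights gave 0.0352 for other probes against periotic tissue. With 1 value per symbol, the medians against periotic tissue were -0.138 for fibrillar and 0.0245 for other. With type IV chains alone as basement membrane, the medians against embryo-minus-otic were 0.0234 for basement membrane and 0.0919 for other. Leaving out 1 array, the median of other probes ran from 0.0109 to 0.0625 against periotic tissue and from -0.0131 to 0.0458 between the non-otic groups, and that of fibrillar probes against embryo-minus-otic from -0.132 to -0.0539. The filter removes probes near background, and the cause of the other shifts was not tested. Of the called log2 differences, neqc alone moved any by over 1.5 times in fold, and it enlarged those of *Col9a2*, *Col7a1*, *Col6a1* probe 2 against embryo-minus-otic and *Col1a1* against embryo-minus-otic. At a detection p under 0.05, 41 collagen probes were above background in place of 28.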
